A study of Homo sapiens with 24 samples.

Results

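The 10 genes described here are transcriptional outputs and negative feedback regulators of the ERK branch of MAPK signalling: DUSP4, DUSP5, DUSP6, SPRY2, SPRY4, SPRED1, SPRED2, ETV4, ETV5 and EPHA2. They were taken by gene name from a list chosen with earlier results of these data known. Each symbol was found once among the 60504 rows of the expression table. RNA was sequenced from 3 human cancer cell lines, A375 (melanoma), SK-Hep1 (labelled liver cancer) and SKBR3 (labelled breast cancer), 48 hours after transfection with siRNA against GCDH (siGCDH) or with a control siRNA (siControl). The target, GCDH, is glutaryl-CoA dehydrogenase, which acts in the mitochondrial degradation of the amino acids lysine and tryptophan. A375 was measured in 2 batches, so that 24 libraries formed 8 groups of 3: siControl and siGCDH for A375 batch 1, A375 batch 2, SK-Hep1 and SKBR3. All groups were transfected, untransfected cells were not analysed here, and the sources used here do not give the siRNA sequences. Batch 1 was made with a kit that reads the 3' end of each transcript. The other 18 libraries were made with a poly(A)-selected, full-length directional kit, and levels were compared between lines and between genes only within that kit.

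In the ERK pathway, growth factor receptors activate RAS, which drives a kinase relay through RAF and MEK to ERK. Active ERK switches on genes that restrain it in turn: dual-specificity phosphatases remove its activating phosphates, while Sprouty and SPRED proteins act nearer the membrane, on the steps around RAS and RAF. ETV4 and ETV5 are ETS transcription factors downstream of ERK, and EPHA2 is a receptor tyrosine kinase whose transcription responds to ERK. In melanoma with an activated BRAF kinase, as in A375, transcripts of this kind are widely read as a measure of ERK output.

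Values are TPM, which are scaled for transcript length and to one total per library. They keep no read totals, so the sequencing depth is unknown. Libraries held 12210 to 17251 genes at 1 TPM or more. Replicates were triplicate wells, so p-values measure the spread between wells, which may be technical. Log2 values of replicates correlated across genes at 0.944 to 0.956 in batch 1 and at 0.981 to 0.987 in the other groups, and 4 long noncoding RNA rows of chromosome 21 took 15.9 to 19.5% of all TPM in the siControl libraries and 31.2 to 34.4% in the siGCDH libraries of batch 1. In siGCDH, GCDH itself stood at 20.8% of its siControl mean in batch 1, at 17.8% in batch 2, at 29.3% in SK-Hep1 and at 26.4% in SKBR3, with no overlap between groups, although the batch 1 difference missed the threshold (adjusted p = 0.118). Markers bore on the labels. In siControl, A375 batch 2 had SOX10 at 457 TPM and TYR at 0. SK-Hep1 had 6 of 8 hepatocyte markers, ALB and APOB among them, at 0 and KRT18 at 2687 TPM. The libraries labelled SKBR3 had ERBB2 at 25.5 TPM, below both other lines, with KRT19 at 0.227 TPM. Of 10 breast epithelial and HER2 markers, 4 were at 1 TPM or more in A375 batch 2, 8 in SK-Hep1 and 6 in SKBR3. CDH1 was at 0 in A375 batch 2 and SK-Hep1 and at 2.49 TPM in the libraries labelled SKBR3. An amplified ERBB2 gene is what SKBR3 is known for, so these libraries are called below by their label only.

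Without knockdown, the 10 genes were highest in A375. In the siControl libraries of the full-length kit, all 10 were higher in A375 batch 2 than in SK-Hep1, all 10 were higher in A375 batch 2 than in the libraries labelled SKBR3, and all 10 were higher in SK-Hep1 than in the latter. Over all 15880 genes tested, 45%, 34.4% and 28.5% were called higher in these comparisons by limma at an adjusted p under 0.05. The median difference of the 10 genes on the log2(TPM + 1) scale was 1.96, 4.19 and 2.18, beside 0.20, -0.08 and -0.29 over all genes. Their summed level was 870 ± 34.4 TPM (SD, n = 3) in A375 batch 2, 228 ± 6.54 TPM in SK-Hep1 and 45.5 ± 1.25 TPM in the libraries labelled SKBR3. Under median scaling, 38%, 32.7% and 31.9% of all genes were higher, and 9, 10 and 10 of these 10.

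The excess in A375 was uneven among the genes. Against SK-Hep1 the mean TPM was 15.2-fold higher for SPRY4, 10.2-fold for DUSP4, 8.58-fold for ETV4, 6.01-fold for SPRY2 and 4.91-fold for DUSP6. It was 3.29-fold higher for ETV5, 2.53-fold for SPRED1 and 2.04-fold for DUSP5. EPHA2 (1.39-fold) and SPRED2 (1.16-fold) were the least apart. The SPRED2 difference of 0.20 (SE 0.06, adjusted p = 0.0188) was lost under median scaling (0.02, adjusted p = 0.763), under quantile normalization, and without A375 batch 2 siControl replicate 2 or SK-Hep1 siControl replicate 1, whereas the other 9 stayed called in each alternative run.

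Several of the feedback genes were close to absent in the libraries labelled SKBR3. SPRY4 was at 0.07, 0.09 and 0.05 TPM and DUSP6 at 0.44, 0.34 and 0.42 TPM in siControl, against 59.9 and 151 TPM as means in A375 batch 2. ETV5, DUSP4 and ETV4 averaged 0.980, 1.39 and 1.78 TPM there. SPRY2 (14.1 TPM), EPHA2 (10.4 TPM) and SPRED2 (9.55 TPM) were the most abundant of the 10 in that group, and EPHA2 and SPRED2 overlapped.

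Within A375 batch 2 siControl the order by mean level was SPRY2 (208 TPM), DUSP6 (151 TPM), ETV4 (121 TPM), EPHA2 (105 TPM), DUSP4 (98.8 TPM), SPRY4 (59.9 TPM), ETV5 (45.2 TPM), SPRED1 (36.5 TPM), SPRED2 (25.8 TPM) and DUSP5 (18.3 TPM). Only EPHA2 and DUSP4 overlapped among neighbours in that order. In SK-Hep1 siControl the order began with EPHA2 (75.6 TPM), SPRY2 (34.7 TPM), DUSP6 (30.8 TPM) and SPRED2 (22.3 TPM). SPRED1, ETV4 and ETV5 overlapped between 12.54 and 16.61 TPM, DUSP4 (9.65 TPM) overlapped DUSP5 (8.98 TPM), and SPRY4 was lowest at 3.94 TPM.

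**Figure D1:**
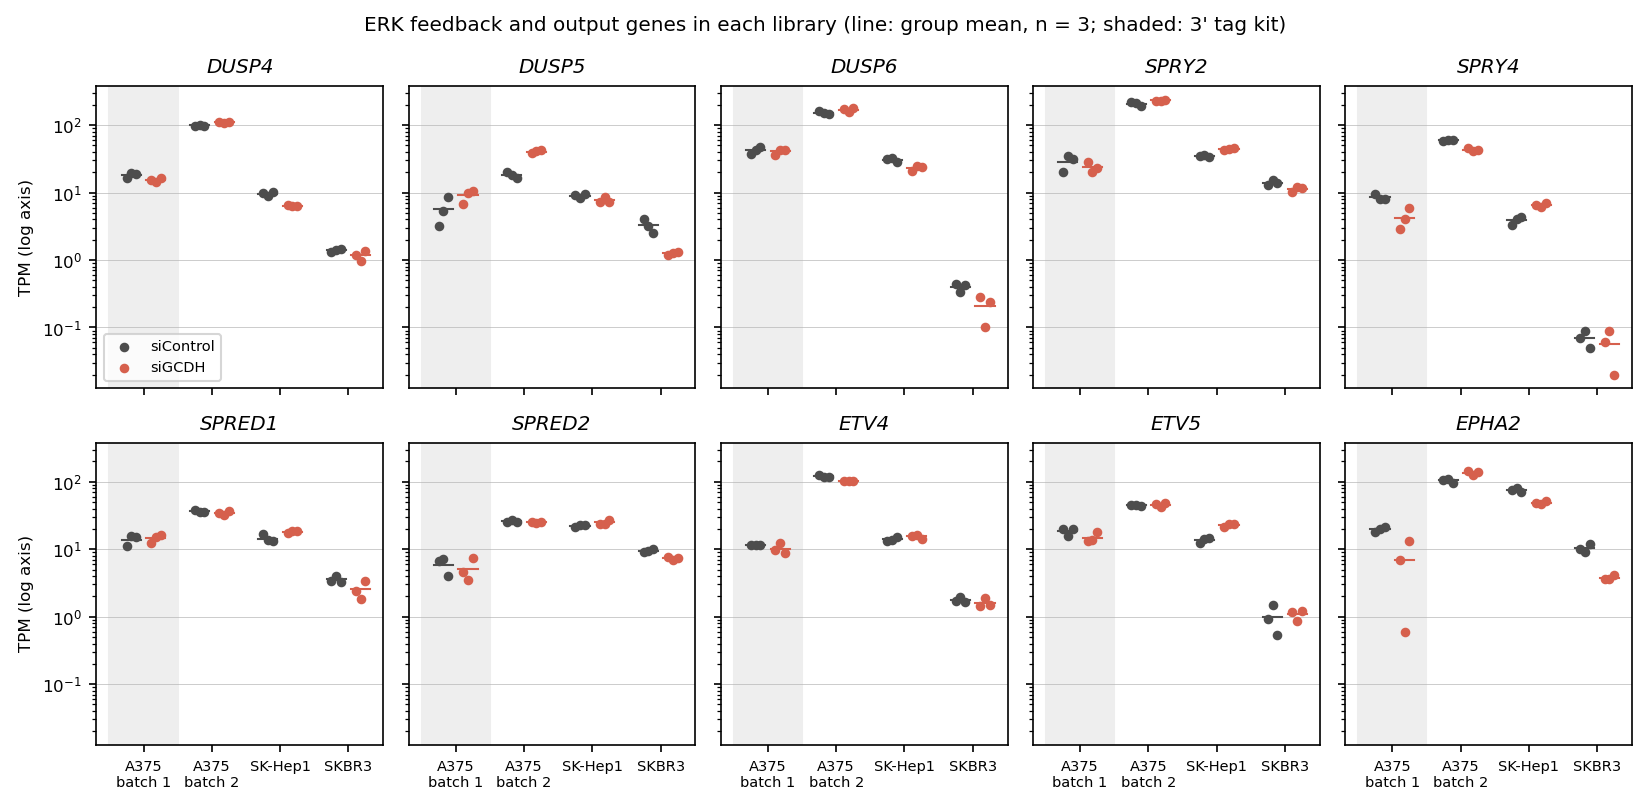
TPM of each gene in all 24 libraries on a logarithmic axis, with 1 point per library, siControl in grey, siGCDH in red and the group mean as a line (n = 3); the shaded strip is the 3' tag kit, whose levels do not compare with the rest. The group means of the 10 genes step down from A375 batch 2 through SK-Hep1 to SKBR3, with DUSP6 and SPRY4 under 1 TPM in the last. SPRED2 is the least apart between A375 batch 2 and SK-Hep1 (1.16-fold in siControl).

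With siGCDH these genes changed in different directions in different lines. Effects of the siRNA other than on GCDH were not tested. In A375 batch 2, 3 of the 10 rose (DUSP5, EPHA2 and DUSP4) and 2 fell (SPRY4 and ETV4), where 17.9% of all genes tested rose and 15.7% fell. In SK-Hep1, 4 rose (ETV5, SPRY4, SPRY2 and SPRED1) and 3 fell (EPHA2, DUSP4 and DUSP6), where 37.3% of all genes rose and 18.2% fell. In the libraries labelled SKBR3, 8 of the 10 passed the filter of a mean of 1 TPM. None of the 8 rose and 4 fell (EPHA2, DUSP5, SPRED2 and SPRY2), where 47.3% of all genes rose and 14.7% fell. In A375 batch 1 none of the 10 was called by limma, 2 had an unadjusted p under 0.05 (SPRY4 and EPHA2), and 1.18% of all genes rose and 6.73% fell.

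The median change of the 10 genes was -0.21 (batch 1), 0.09 (batch 2) and 0.14 (SK-Hep1), beside -0.20, 0.02 and 0.18 over all genes tested. In the libraries labelled SKBR3 the median of the 8 was -0.31, beside 0.29 over all genes. Under median scaling the share of all genes called higher and lower became 28.9% and 23% in SK-Hep1, 30.6% and 25.3% in SKBR3 and 1.61% and 2.28% in batch 1, and the counts among the 10 genes became 3 higher and 4 lower in SK-Hep1, 0 and 5 in SKBR3 and 0 and 0 in batch 1. The summed level of the 10 genes went from 870 ± 34.4 to 940 ± 31.1 TPM in A375 batch 2, from 228 ± 6.54 to 219 ± 7.74 TPM in SK-Hep1 and from 45.5 ± 1.25 to 30.4 ± 1.65 TPM in the libraries labelled SKBR3 (SD, n = 3). In bulk RNA, fewer cells with a transcript and less of it per cell cannot be told apart.

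**Figure D2:**
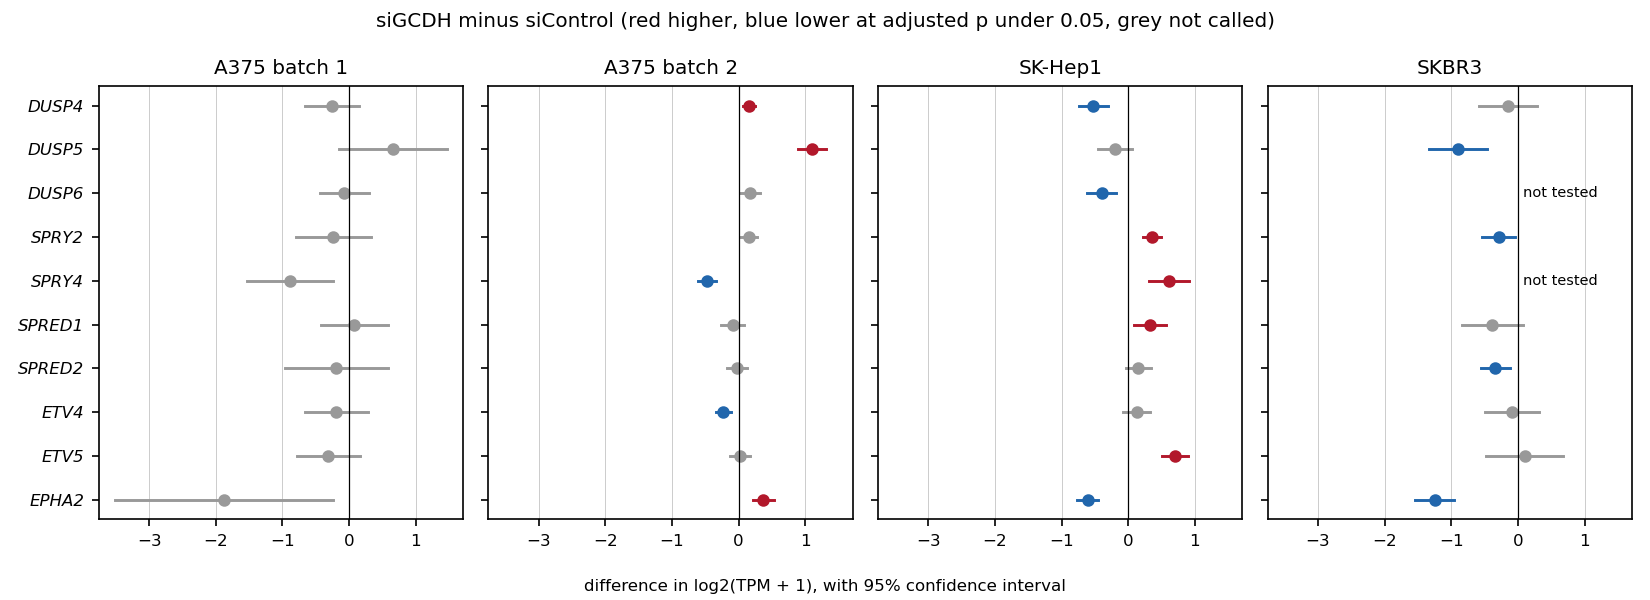
Difference between siGCDH and siControl in log2(TPM + 1) for each gene, with 95% confidence intervals, in 4 panels for the lines and batches (3 against 3 libraries each); red and blue points passed an adjusted p of 0.05 and grey points did not. DUSP5 lies at 1.10 in A375 batch 2 and at -0.90 in SKBR3, and EPHA2 at 0.37 and -1.25.

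Among the phosphatases, DUSP5 showed the widest range of responses. DUSP5 is a nuclear phosphatase selective for ERK. Its values in A375 batch 2 were 20.4, 18.1 and 16.46 TPM in siControl and 38.1, 40.68 and 42.08 TPM in siGCDH. The groups were far apart, and the rise was 2.20-fold in TPM, or 1.10 on the log2(TPM + 1) scale (SE 0.09, adjusted p = 0.000138).

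The same gene went the other way in the libraries labelled SKBR3, from 4.11, 3.19 and 2.53 TPM to 1.18, 1.28 and 1.33 TPM. Again the groups did not overlap, and DUSP5 fell by 0.90 (SE 0.19, adjusted p = 0.00433). In SK-Hep1 it ranged from 8.19 to 9.68 TPM in siControl and from 7.17 to 8.61 TPM in siGCDH. These groups overlapped, and the difference of -0.20 was not called (95% interval -0.46 to 0.06), although it was called under median scaling (-0.31, adjusted p = 0.0438). In batch 1 the values were 3.15, 5.33 and 8.63 TPM against 6.75, 9.92 and 10.64 TPM. These overlapped too, and the difference was 0.65 (adjusted p = 0.296).

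DUSP6, a cytoplasmic phosphatase selective for ERK and one of the most used readouts of its activity, fell in SK-Hep1. There it went from 31.38, 32.76 and 28.24 TPM to 20.57, 24.84 and 23.94 TPM. All siGCDH libraries were lower, by 0.40 (SE 0.09, adjusted p = 0.00778). In A375 batch 2 it was at 159.75, 148.66 and 145.3 TPM in siControl and at 172.99, 156.31 and 180.83 TPM in siGCDH. One siGCDH library lay below the highest siControl library, and the difference of 0.17 was not called (95% interval 0.02 to 0.32, adjusted p = 0.0844). Without siGCDH replicate 2 it was called (0.23, adjusted p = 0.0255). In batch 1 the ranges, 37.69 to 47.55 and 36.61 to 43.08 TPM, overlapped almost wholly.

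DUSP4, a nuclear phosphatase that acts on ERK and on JNK, fell in SK-Hep1 from 9.87, 9.04 and 10.03 TPM to 6.51, 6.34 and 6.38 TPM. The siGCDH libraries were tight and lower, by 0.52 (SE 0.09, adjusted p = 0.00224). It moved slightly upward in A375 batch 2, from 98.58, 99.75 and 98.01 TPM to 112.09, 108.98 and 109.79 TPM. The groups were separate and the rise was 0.16 (SE 0.04, adjusted p = 0.0204). That call was lost without the variance trend (adjusted p = 0.0696), in a joint fit of 24 libraries (adjusted p = 0.259) and on leaving out any library other than siGCDH replicate 2 (adjusted p = 0.0542 to 0.0642).

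The libraries labelled SKBR3 left little of DUSP4 and DUSP6 to compare. DUSP4 was at 1.3, 1.4 and 1.47 TPM in siControl and 1.2, 0.97 and 1.34 TPM in siGCDH, which overlapped (-0.14, adjusted p = 0.53). DUSP6 was at 0.44, 0.34 and 0.42 TPM against 0.28, 0.1 and 0.24 TPM. Its groups did not overlap, but it lay under the filter, and without a filter the difference was -0.22 (adjusted p = 0.142). A log2 scale with 1 TPM added understates changes at such levels.

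The Sprouty genes split between the lines. SPRY4, a membrane-associated inhibitor of receptor signalling to RAS, fell in A375 batch 2 from 58.44, 60.23 and 61.01 TPM to 45.17, 40.7 and 42.75 TPM. The groups were separate, and the change was -0.47 (SE 0.06, adjusted p = 0.00093). In batch 1 SPRY4 was at 9.45, 8.05 and 7.93 TPM in siControl and at 2.84, 4.07 and 5.84 TPM in siGCDH. All siGCDH libraries were again lower, with a difference of -0.89 (SE 0.28) that did not pass after adjustment (adjusted p = 0.0981).

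In SK-Hep1 SPRY4 rose, from 3.34, 4.09 and 4.39 TPM to 6.56, 6.11 and 6.91 TPM. The difference was 0.61 (SE 0.13, adjusted p = 0.0049) and the groups did not overlap. It was at 0.02 to 0.09 TPM in all 6 libraries labelled SKBR3 and was not tested. An antisense RNA across the SPRY4 gene, SPRY4-AS1, averaged 4.70 and 6.25 TPM in siControl and siGCDH of A375 batch 2 and 2.50 and 3.96 TPM in SK-Hep1. Whether the counting used strand is not given in the sources at hand, so reads of the pair cannot be told apart.

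A stretch of the SPRY4 transcript is shown because it holds, in the annotated 3' UTR, the letters ACTGAGA, which an earlier pass over these data had singled out in genes that fell in A375. Of the 10 genes, DUSP4, SPRY4 and SPRED2 hold that 7-mer, with 1 match position each over their annotated 3' UTRs in GENCODE 29. The SPRY4 site lies at chr5:142313602-142313624 and the SPRED2 site at chr2:65312775-65312797, both on the minus strand of GRCh38. The match is in capitals, in the letters of the transcript written as DNA, 5' to 3':
SPRY4: tgggagccACTGAGAacagagga
SPRED2: cgtaatagACTGAGAattgagcc
Over all genes of A375 batch 2 with a searched 3' UTR, 15.57% of 12161 held the 7-mer. Their median change was -0.12 beside 0.03 in genes without it, and 29.37% of them fell beside 16.35%. The 7-mer was singled out in genes that fell in A375, so this gap followed from that choice and is no separate evidence. In SK-Hep1 the medians were 0.17 and 0.15, in SKBR3 0.21 and 0.22 and in A375 batch 1 -0.25 and -0.21. Shares that fell were 20.74% and 20.69% in SK-Hep1, 17.26% and 18.31% in SKBR3, and 9.716% and 7.091% in batch 1. The 3 holders among the 10 genes did not move together in A375 batch 2, where SPRY4 fell, DUSP4 rose and SPRED2 was not called. The part of such a site in any of these changes was not tested.

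SPRY2, the second Sprouty gene, was higher in SK-Hep1 siGCDH, at 43.17, 44.38 and 46.45 TPM against 34.37, 35.68 and 33.9 TPM. It rose by 0.36 (SE 0.06, adjusted p = 0.00155), with no overlap. A375 batch 2 gave 219.82, 211.54 and 193.13 TPM in siControl and 229.62, 228.21 and 237.65 TPM in siGCDH. The groups were separate, yet the difference of 0.16 missed the threshold (adjusted p = 0.0563), and it passed with a filter at 5 TPM (adjusted p = 0.0433), under quantile normalization (adjusted p = 0.0488) and without siControl replicate 1 (0.20, adjusted p = 0.04). It fell in the libraries labelled SKBR3 from 12.88, 15.42 and 13.86 TPM to 10.06, 12.21 and 11.75 TPM. That change of -0.29 (SE 0.10, adjusted p = 0.0451) was lost with no filter (adjusted p = 0.0798), without the trend (adjusted p = 0.0514), in the joint fit (adjusted p = 0.121) and on leaving out siControl replicate 2 or 3 or siGCDH replicate 1 or 3 (adjusted p = 0.0699 to 0.136).

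SPRED1 and SPRED2, which carry an EVH1 domain and restrain RAF activation, were each called in 1 line. SPRED1 rose in SK-Hep1 from 16.61, 13.55 and 13.04 TPM to 17.44, 18.74 and 18.48 TPM. The groups were just separate, and the rise of 0.33 (SE 0.10, adjusted p = 0.0276) was lost under median scaling (0.21, adjusted p = 0.111), under quantile normalization (0.19, adjusted p = 0.135), with no filter (adjusted p = 0.0574), in the joint fit (adjusted p = 0.106) and without replicate 2 or 3 of either group (adjusted p = 0.0735 to 0.088). It overlapped in A375 batch 2, at 35.17 to 38.67 TPM and 32.09 to 36.61 TPM. Among the libraries labelled SKBR3 it was at 3.38, 4.06 and 3.24 TPM against 2.4, 1.85 and 3.39 TPM. One siGCDH library lay within the siControl range, and the difference of -0.38 was not called (adjusted p = 0.122), although it was under median scaling (-0.56, adjusted p = 0.0365) and without siGCDH replicate 3 (-0.55, adjusted p = 0.0391).

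SPRED2 fell in the libraries labelled SKBR3, from 9.08, 9.43 and 10.15 TPM to 7.73, 6.96 and 7.38 TPM. The groups did not overlap, and the change was -0.34 (SE 0.09, adjusted p = 0.0152), with an adjusted p of 0.0527 without siControl replicate 3 and 0.146 in the joint fit. In A375 batch 2 it was at 24.89 to 27.11 TPM in siControl and 24.64 to 25.71 TPM in siGCDH, and the difference of -0.03 had a 95% interval of -0.18 to 0.13. In SK-Hep1 it went from 21.41, 22.71 and 22.73 TPM to 23.63, 23.71 and 27.45 TPM, a difference of 0.15 that was not called (adjusted p = 0.147) although the groups were separate.

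The ETS factors also differed between lines. ETV5 had the largest rise of the 10 in SK-Hep1, from 12.54, 14.19 and 14.46 TPM to 21.5, 23.56 and 23.78 TPM. All siGCDH libraries were well above siControl, by 0.70 (SE 0.09, adjusted p = 0.000308). ETV5 in A375 batch 2 was at 45.58, 45.93 and 44.13 TPM against 47.11, 42.74 and 48.03 TPM. These overlapped, and the difference was 0.02 with a 95% interval of -0.13 to 0.17. In batch 1 it ranged from 15.8 to 20.09 TPM in siControl and from 13.06 to 17.77 TPM in siGCDH, and in the libraries labelled SKBR3 from 0.53 to 1.48 and from 0.87 to 1.23 TPM, both overlapping.

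ETV4 fell in A375 batch 2 from 126.93, 118.39 and 117.74 TPM to 102.95, 103.89 and 102.76 TPM. The siGCDH libraries were nearly identical and all lower, with a difference of -0.23 (SE 0.05, adjusted p = 0.00798) that was lost only in the joint fit (adjusted p = 0.16). Its values overlapped elsewhere: 13.39 to 15 and 14.31 to 16.36 TPM in SK-Hep1, 11.46 to 11.65 and 8.64 to 12.16 TPM in batch 1, and 1.64 to 1.97 and 1.46 to 1.89 TPM in the libraries labelled SKBR3. The ETV4 gene overlaps DHX8 on the opposite strand, which averaged 58.1 and 56.6 TPM in siControl and siGCDH of A375 batch 2.

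EPHA2, the receptor, was called in opposite directions in A375 batch 2 and in the other lines. It rose in A375 batch 2 from 107.38, 111.11 and 97.28 TPM to 143.6, 127 and 138.25 TPM. The groups were separate by 0.37 (SE 0.07, adjusted p = 0.00516). In SK-Hep1 it fell from 74.6, 81.2 and 71.07 TPM to 48.43, 47.47 and 51.5 TPM, with no overlap and a change of -0.61 (SE 0.07, adjusted p = 0.000178). It fell 2.76-fold in the libraries labelled SKBR3, from 10.16, 9.09 and 12 TPM to 3.65, 3.56 and 4.13 TPM. The change there was -1.25 (SE 0.13, adjusted p = 0.000145), the largest of any of the 10 genes that passed the test.

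In A375 batch 1 EPHA2 lay on the other side from batch 2, at 17.88, 20.02 and 21.36 TPM in siControl and at 7, 0.6 and 13.2 TPM in siGCDH. The groups did not overlap, but the siGCDH libraries spread over a wide range. The difference of -1.87 (SE 0.71, unadjusted p = 0.0301) did not pass after adjustment (adjusted p = 0.152), and it was -0.96 without siGCDH replicate 2. The joint fit of 24 libraries, which takes its spread from all groups, called this change in batch 1 (adjusted p = 0.00268) and not those in batch 2 (adjusted p = 0.677) or SK-Hep1 (adjusted p = 0.321).

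Promoter windows from RefSeq on GRCh38.p14, 250 bases before to 50 bases after a start, were at hand for DUSP6, SPRY2, SPRY4, SPRED1, SPRED2 and EPHA2, 6 of the 10 genes, in 9 windows. They were searched on both strands for an ETS site (CCGGAAGT), a cAMP response element (TGACGTCA) and an AP-1 site (TGANTCA), letters that ETS, CREB and AP-1 factors are known to bind, none of which contains another. No window of the 6 genes held the ETS letters, which 4.138% of 35116 windows of this length held. EPHA2 held the cAMP response element, found in 1.848% of windows, and SPRED2 held the AP-1 letters in 1 of its windows, found in 7.709%. The start of that SPRED2 window lies inside the annotated gene, which spans chr2:65310851-65432637 on the minus strand. Another AP-1 match, TGAATCA, lay 35 bases after the same start. The EPHA2 stretch lies at chr1:16156105-16156128 on the minus strand, 51 bases before the start, and the SPRED2 stretch at chr2:65366770-65366792 on the minus strand, 6 bases before the start. They are shown because they are the matches nearest before a start, with the match in capitals:
EPHA2: ggcgttggTGACGTCAcgcagggc
SPRED2: ccctcggaTGACTCAtccggtac
A match of letters is a description, and binding was not measured.

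The differences between the lines were tested directly, as the knockdown change in one line minus that in another. These comparisons share libraries with each other. Between A375 batch 2 and SK-Hep1, 9 of the 10 genes differed, 4 in the positive direction (17.4% of all genes) and 5 in the negative (28.8%). The phosphatases and EPHA2 changed more positively in A375, DUSP5 by 1.3 (SE 0.14, adjusted p = 1.83e-05), EPHA2 by 0.98 (SE 0.10, adjusted p = 1.12e-05), DUSP4 by 0.68 and DUSP6 by 0.57. The Sprouty, SPRED1 and ETS genes changed more positively in SK-Hep1: SPRY4 by -1.09 (SE 0.12, adjusted p = 2.7e-05), ETV5 by -0.68, SPRED1 by -0.42, ETV4 by -0.36 and SPRY2 by -0.20. Of these, SPRY2 (-0.09) and SPRED1 (-0.31) were lost under median scaling, where 21.4% of all genes were positive and 23.2% negative. SPRY2 was also lost on leaving out any library other than A375 batch 2 siControl replicate 3, SK-Hep1 siControl replicate 2 or SK-Hep1 siGCDH replicate 1 (adjusted p = 0.0511 to 0.105).

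Between A375 batch 2 and the libraries labelled SKBR3, 7 genes differed, 6 in the positive direction (14.5% of all genes) and 1 in the negative (36.8%). Under median scaling 22.2% of all genes were positive and 25.2% negative, and under quantile normalization 22.9% and 22.5%. DUSP5 had the widest difference, 2.0 (SE 0.18, adjusted p = 5.71e-06), followed by EPHA2 with 1.62 (SE 0.13, adjusted p = 3.14e-06). SPRY2 (0.44), DUSP6 (0.38), SPRED2 (0.31) and DUSP4 (0.30) also changed more positively in A375, and SPRY4 more negatively (-0.46). DUSP6 and SPRY4 were under 1 TPM in SKBR3, where their changes without a filter were -0.22 and -0.018, and the SPRY4 difference was lost with a pseudocount of 0.1 (adjusted p = 0.302). DUSP4 was lost on leaving out any A375 batch 2 library other than siGCDH replicate 2, SKBR3 siControl replicate 3 or SKBR3 siGCDH replicate 2 (adjusted p = 0.0512 to 0.0609). DUSP6 had an adjusted p of 0.0509 without A375 batch 2 siGCDH replicate 3, and SPRED1 was called (0.46, adjusted p = 0.0283) without SKBR3 siGCDH replicate 3.

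Between SK-Hep1 and the libraries labelled SKBR3, 7 genes changed more positively in SK-Hep1 (14.5% of all genes) and 1 more negatively (25%), shares that became 20.4% and 19.4% under median scaling. The 7 were SPRED1 (0.71, SE 0.21, adjusted p = 0.0205), DUSP5 (0.70), SPRY2 (0.64, SE 0.12, adjusted p = 0.00122), EPHA2 (0.64), SPRY4 (0.63), ETV5 (0.60) and SPRED2 (0.49). SPRY4 was at 0.02 to 0.09 TPM in SKBR3 and passed the filter only through SK-Hep1. Its difference therefore restates its SK-Hep1 change of 0.61 and says nothing about a response in SKBR3. The other was DUSP4, with -0.38 (SE 0.14, adjusted p = 0.0472). The DUSP4 call was lost with a pseudocount of 0.1 (adjusted p = 0.217), with no filter (adjusted p = 0.088) and in a robust fit (adjusted p = 0.0532), it was not tested with a filter at 5 TPM, and its sign turned under quantile normalization (0.088, adjusted p = 0.647). With a pseudocount of 0.1 SPRY4 (adjusted p = 0.0854) and ETV5 (adjusted p = 0.336) were lost too, and with a pseudocount of 5 DUSP5 (adjusted p = 0.077) and EPHA2 (adjusted p = 0.0891). ETV5 was lost on leaving out any library other than SKBR3 siControl replicate 3 (adjusted p = 0.0569 to 0.104), and DUSP4 on leaving out any other than SKBR3 siGCDH replicate 2 (adjusted p = 0.0513 to 0.0982). Between the 2 batches of A375 none of the 10 differed by limma, 2 had an unadjusted p under 0.05, and 4.78% of all genes were called in the positive and 0.447% in the negative direction. That split was 0.589% and 0.643% under median scaling and 0.677% and 0.826% under quantile normalization. The EPHA2 difference there was 2.24 (SE 0.81, adjusted p = 0.141). It was 1.33 (adjusted p = 0.0211) without batch 1 siGCDH replicate 2 and 2.90 (adjusted p = 0.0277) without siGCDH replicate 3. Without batch 1 siControl replicate 1, DUSP4 (0.47, adjusted p = 0.0373) and SPRY2 (0.62, adjusted p = 0.0447) were called.

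**Figure D3:**
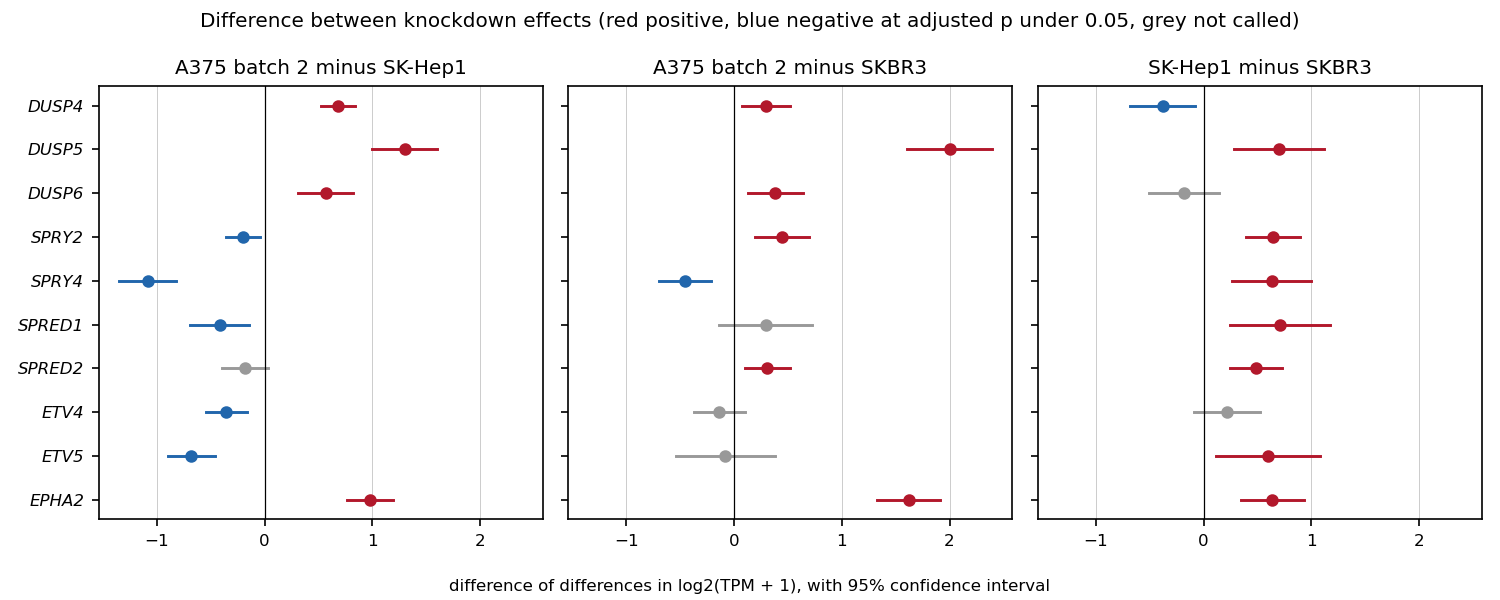
Difference between the knockdown changes of 2 lines, in log2(TPM + 1) with 95% confidence intervals, for the 10 genes (12 libraries per panel); red and blue points passed an adjusted p of 0.05 and grey points did not. DUSP5 and EPHA2 lie to the right in all 3 panels, while SPRY4 lies at -1.09 and -0.46 in the panels that involve A375 and at 0.63 in the third. DUSP6 and SPRY4 were under 1 TPM in SKBR3.

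Other transcripts known as ERK outputs or feedback genes, 25 genes listed by known function, rose more often than they fell in A375 batch 2. The list was chosen with earlier results of these data known, so its counts are no separate evidence. ERK activity itself was not measured here. Of 24 tested, 15 rose and 3 fell, where 17.9% and 15.7% of all genes did, and their median was 0.45 beside 0.02 over all genes. The immediate early factor EGR1 rose by 1.93 (SE 0.07, adjusted p = 4.5e-06), the chromatin protein HMGA2 by 1.63 and the AP-1 subunit FOSL1 by 1.02. In SK-Hep1 6 rose and 6 fell of 21, where 37.3% and 18.2% of all genes did. There cyclin D1 (CCND1) was up by 1.58, FOSL1 was up by 0.87 and MYC was at -1.35. In the libraries labelled SKBR3 6 rose and 9 fell of 21, where 47.3% and 14.7% of all genes did. The median of the 21 was -0.46 beside 0.29 over all genes. MYC was at -2.16 there, HMGA2 at -1.97 and the phosphatase DUSP7 at -1.09, all called. Under median scaling the split in SKBR3 was 2 and 9, where 30.6% of all genes were called higher and 25.3% lower. In batch 1 3 rose and 2 fell of 22, where 1.18% and 6.73% of all genes did. Among those called were HMGA2 (1.35), CCND1 (0.90) and the survival gene IER3 (-0.93).

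HMGA2 and MYC, both read as growth-associated targets, show how far the lines differed. HMGA2 went from 123 ± 3.94 to 382 ± 26.8 TPM in A375 batch 2, from 131 ± 9.57 to 46.9 ± 4.70 TPM in SK-Hep1 and from 40.3 ± 1.99 to 9.52 ± 0.565 TPM in the libraries labelled SKBR3 (SD, n = 3). MYC went from 10.4 ± 0.821 to 14 ± 0.789 TPM, from 103 ± 3.75 to 39.7 ± 1.69 TPM and from 168 ± 1.94 to 36.8 ± 0.945 TPM in the same order. HMGA2 thus shared its direction with DUSP5 and EPHA2 in A375 batch 2 and in SKBR3, where all 3 passed the test. In SK-Hep1 HMGA2 (-1.46) and EPHA2 (-0.61) fell and DUSP5 was not called. In batch 1 HMGA2 rose by 1.35, while DUSP5 (0.65) and EPHA2 (-1.87) had opposite signs and were not called.

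The kinase relay upstream was counted the same way. Of 30 genes from the adaptors around RAS to the substrates of ERK, 9 rose and 5 fell of 30 tested in A375 batch 2, 10 rose and 8 fell of 29 in SK-Hep1, 9 rose and 9 fell of 30 in the libraries labelled SKBR3, and 0 rose and 3 fell of 28 in batch 1. Under median scaling the SKBR3 split was 7 and 16, the SK-Hep1 split 10 and 11, and the batch 1 count 0 and 0. Over all genes tested, 17.9% rose and 15.7% fell in A375 batch 2, 37.3% and 18.2% in SK-Hep1, 47.3% and 14.7% in SKBR3 and 1.18% and 6.73% in batch 1. Against these, the relay had a smaller share called higher and a larger share called lower in SKBR3. In SK-Hep1 its share called lower was larger, and its share called higher was close to that of all genes. Under median scaling 28.9% of all genes were higher and 23% lower in SK-Hep1, and 30.6% and 25.3% in SKBR3. None of these gaps was tested.

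PTPN11, the SHP2 phosphatase that relays receptor signals to RAS, fell in all 4 comparisons, by limma, with changes of -0.87 (batch 1), -1.0 (batch 2), -0.45 (SK-Hep1) and -0.47 (SKBR3). Its level in A375 batch 2 was 90.9 ± 5.33 TPM in siControl and 45.2 ± 4.26 TPM in siGCDH. The batch 1 call was lost under median scaling, where none of the 28 was called. MAP2K2, which encodes MEK2, fell in the 3 comparisons of the full-length kit, with changes of -0.26 in A375 batch 2, -0.95 in SK-Hep1 and -1.16 in SKBR3. PEA15, which holds ERK in the cytoplasm, rose in the same 3, by 0.85, 0.54 and 0.59. GRB2 (-0.83) and NRAS (-1.01) were the other calls in batch 1, SRF (-1.04) was among the falls in SK-Hep1 and RPS6KA1 (0.42) among the rises in A375 batch 2. PTPN11 and HMGA2 hold the 7-mer ACTGAGA in a 3' UTR, and MAP2K2 and PEA15 do not.

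**Figure D4:**
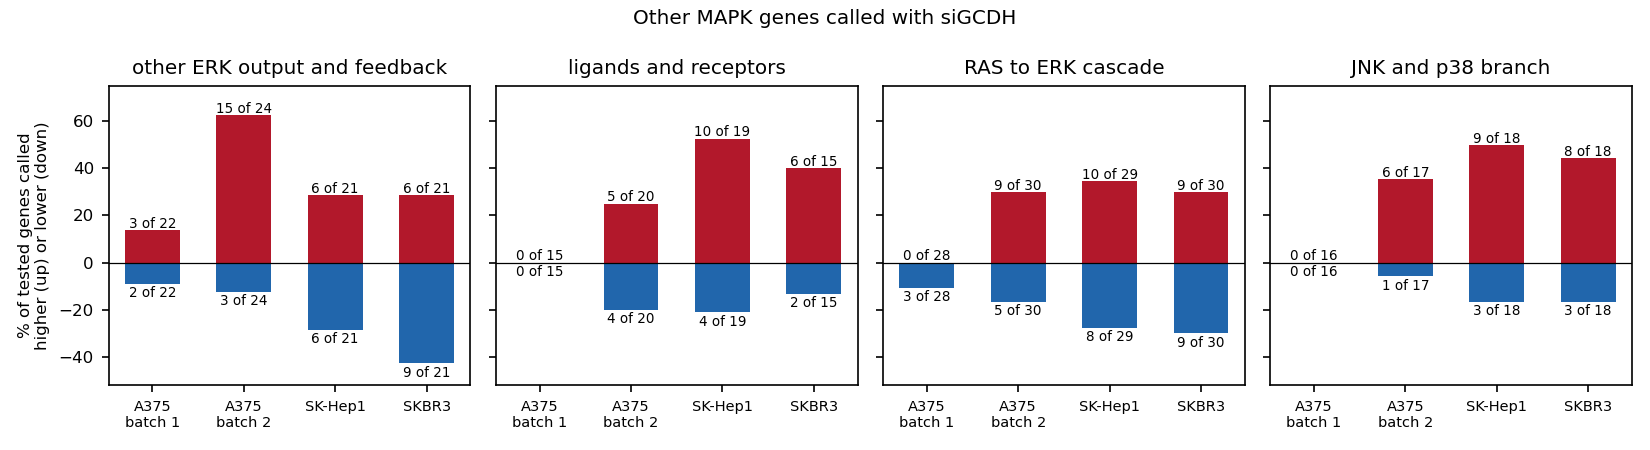
Share of tested genes called higher (up, red) or lower (down, blue) with siGCDH for 4 groups of other MAPK genes, in each line and batch, with the counts printed at the bars. Other ERK output and feedback genes were called higher for 15 of 24 in A375 batch 2 and lower for 9 of 21 in SKBR3. Over all genes tested, 17.9% were called higher in A375 batch 2 and 14.7% lower in SKBR3.

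The genes whose levels across groups were most like those of DUSP6, SPRY4, EPHA2 and ETV5 were sought among all genes. Likeness was the root mean square difference in centred log2(TPM + 1) over the 6 groups of the full-length kit, among 10639 genes, as a description with no test. Nearest to DUSP6 were SLC43A3 (0.35), TNC (0.42) and KRT80 (0.47), and nearest to SPRY4 were INHBA (0.38), UBBP4 (0.42) and SH3TC2 (0.43). UBBP4 is a ubiquitin pseudogene, and its reads may be split with its parents. Nearest to EPHA2 were PRSS23 (0.29), the ETS factor ETV1 (0.39), which is also in the list of other ERK outputs, and CRIM1 (0.41), and nearest to ETV5 were SERPINB8 (0.15), IL1RAPL1 (0.16) and ZFPM2-AS1 (0.26). Among the 10 genes themselves the closest pairs were SPRY4 with ETV4 (0.19), DUSP4 with ETV4 (0.38) and DUSP4 with SPRY4 (0.45). The 6 groups come from 3 lines, and all 10 genes share the step down to the libraries labelled SKBR3. SPRED2 differed little between A375 batch 2 and SK-Hep1 (1.16-fold in siControl).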

How the data were processed

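Expression was deposited as TPM, computed by the authors for every library. The tools named in the submitters' processing notes are RSEM 1.3.1, STAR 2.7.0d and cutadapt 2.3, with hg38 as the build. Not given in the sources used here are the annotation version and the strand setting. RSEM estimates how reads divide among overlapping and near-identical transcripts. Groups and replicate numbers came from the sample labels. Values were taken as log2(TPM + 1) and fitted with limma 3.58.1 (lmFit, eBayes with trend) in R 4.3.3, per line and batch on 6 libraries, on 12 for differences between lines or batches and on 9 siControl libraries for levels, keeping genes that averaged 1 TPM or more. Two-sided p-values were adjusted (Benjamini-Hochberg) across every gene of a fit, and called under 0.05. The fits were tested on simulated data. Replicate numbers did not pair the libraries.

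The 10 genes, the lists and the tests were chosen with earlier results of these data known. Named were all 10 genes, GCDH, up to 3 called genes per list and comparison with the smallest adjusted p, and the 3 genes most like DUSP6, SPRY4, EPHA2 and ETV5. HMGA2, MYC, PTPN11, MAP2K2 and PEA15 were also followed into other lines after their values were seen. A gene that the rule names is not reported here. Alternatives were pseudocounts of 0.1 and 5, no filter or 5 TPM, median scaling, quantile normalization, no trend, a robust fit, a replicate block, a joint fit and leaving out each library. Removal of the 4 chromosome 21 rows was added after seeing the data. Gene positions and UTRs are from GENCODE 29, read with Python 3.11.15.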

Additional observations from a re-analysis of the deposited data

Results flagged for a closer look

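Each result here is a difference between the knockdown changes of 2 lines that passed its own test (limma, interaction, adjusted p under 0.05), in log2(TPM + 1). The comparisons share libraries. The GCDH transcript left in siGCDH also differed, from 17.8% of siControl in A375 batch 2 to 26.4% in SKBR3 and 29.3% in SK-Hep1. Its part in these differences was not tested.

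For A375 batch 2 minus SK-Hep1 the differences were 0.68 for DUSP4, 1.3 for DUSP5, 0.57 for DUSP6, -0.20 for SPRY2, -1.09 for SPRY4, -0.42 for SPRED1, -0.36 for ETV4, -0.68 for ETV5 and 0.98 for EPHA2. DUSP4, SPRY4 and EPHA2 were called in both lines with opposite signs.

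For A375 batch 2 minus SKBR3 they were 0.30 for DUSP4, 2.0 for DUSP5, 0.38 for DUSP6, 0.44 for SPRY2, -0.46 for SPRY4, 0.31 for SPRED2 and 1.62 for EPHA2. DUSP5 and EPHA2 were called in both with opposite signs. DUSP6 and SPRY4 were under 1 TPM in SKBR3, were not tested there and passed the filter here only through A375. The SPRY4 difference restates its A375 batch 2 change of -0.47 and was lost with a pseudocount of 0.1.

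For SK-Hep1 minus SKBR3 they were -0.38 for DUSP4, 0.70 for DUSP5, 0.64 for SPRY2, 0.63 for SPRY4, 0.71 for SPRED1, 0.49 for SPRED2, 0.60 for ETV5 and 0.64 for EPHA2. SPRY2 was called in both with opposite signs. SPRY4 was under 1 TPM in SKBR3, so its difference restates its SK-Hep1 change of 0.61, and it was lost with a pseudocount of 0.1. The DUSP4 difference turned to 0.088 under quantile normalization and was lost in other alternatives.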

How the results depend on the processing

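The calls of DUSP5 and SPRY4 in A375 batch 2, of ETV5, SPRY4, DUSP4 and DUSP6 in SK-Hep1 and of EPHA2 and DUSP5 in SKBR3 held in every alternative run that tested them. DUSP5 in SKBR3 averaged 3.28 TPM in siControl and 1.26 TPM in siGCDH and was not tested with a filter at 5 TPM. The joint fit of 24 libraries, which takes 1 spread from both kits, changed most counts: 1 of the 10 genes higher and 3 lower in A375 batch 1 (with GCDH called at -1.42, adjusted p = 0.000397), 1 and 1 in batch 2, 2 and 2 in SK-Hep1 and 0 and 2 in SKBR3. All genes called in that joint fit numbered 5573 in A375 batch 1, 2646 in batch 2 and 6593 in SKBR3. In the fits per line and batch they numbered 1018, 5099 and 10236. Quantile normalization gave 7 lower in SKBR3, where it called 26.1% of all genes lower, against 14.7% without it. For A375 batch 2 minus SK-Hep1, 3 were lower under median scaling and under quantile normalization, where 23.2% and 22.6% of all genes were. For A375 batch 2 minus SKBR3, 0 were lower with a pseudocount of 0.1 and 2 with a pseudocount of 5. For SK-Hep1 minus SKBR3, 0 were lower with a pseudocount of 0.1, no filter, a filter at 5 TPM, quantile normalization and a robust fit, and 2 with a pseudocount of 5. Leaving out each library in turn gave 2 to 4 lower in SKBR3, with 2 without siControl replicate 3, 0 to 2 higher for A375 batch 2 minus batch 1 and 0 to 1 lower for SK-Hep1 minus SKBR3.

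Deviations of same-numbered libraries correlated at -0.063 to 0.139, so the numbers share only a name; 1, 1, 2 and 1 of 3 siControl libraries were closest to their own number. With the replicate block, 2 of the 10 genes were higher and 2 lower in A375 batch 2, 4 and 3 in SK-Hep1, 0 and 4 in SKBR3 and 0 and 0 in batch 1, and 0 were lower for SK-Hep1 minus SKBR3. All genes called in batch 1 then numbered 357, against 1018 without the block.

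Small differences changed sign, nearly all of them uncalled. In batch 1, DUSP6 was 0.14 and ETV4 0.0040 under median scaling, DUSP6 0.17, SPRED2 0.010 and ETV4 0.019 under quantile normalization, and DUSP4 0.040, DUSP6 0.23, SPRY2 0.064, SPRED2 0.072 and ETV4 0.095 without the chromosome 21 rows. ETV4 in SK-Hep1 was -0.011 under quantile normalization, and ETV5 in SKBR3 -0.018 under median scaling and -0.66 under quantile normalization. For A375 batch 2 minus SKBR3, ETV4 was 0.0024 and ETV5 0.029 under median scaling, and 0.47 (adjusted p = 0.00414, called) and 0.47 under quantile normalization. For SK-Hep1 minus SKBR3, DUSP6 was 0.34 with a pseudocount of 0.1 and DUSP4 0.088 under quantile normalization. For batch 2 minus batch 1, SPRED2 was -0.036, -0.053 and -0.10 under median scaling, quantile normalization and without the chromosome 21 rows, and DUSP6 -0.068 under the last. With single libraries left out, batch 1 gave -0.15 to 0.010 for DUSP6, -0.069 to 0.19 for SPRED1 and -0.43 to 0.019 for SPRED2; batch 2 gave -0.010 to 0.072 for ETV5 and -0.053 to 0.0064 for SPRED2; SKBR3 gave -0.070 to 0.18 for ETV5; batch 2 minus batch 1 gave -0.14 to 0.088 for ETV4 and -0.047 to 0.40 for SPRED2; and A375 batch 2 minus SKBR3 gave -0.26 to 0.092 for ETV5. The cause was not tested.

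All genes called in batch 1 numbered 1018, from 85 without the trend to 5573 in the joint fit. In the other 3 comparisons within a line the count moved by over 1.5 times only in the joint fit, to 2646 in A375 batch 2 from 5099 and to 6593 in SKBR3 from 10236. Without read totals the precision of low values, as in batch 1 and for DUSP6 and SPRY4 in SKBR3, cannot be given.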

Other observations

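Ligands and receptors that feed the ERK pathway and the JNK and p38 branch were measured beside the feedback genes. Of 26 ligand and receptor genes, 5 rose and 4 fell of 20 tested in A375 batch 2. The receptor AXL rose there by 1.17, the HGF receptor MET by 0.69 and the EGF family ligand AREG by 1.19 (2.34 ± 0.214 to 6.66 ± 0.793 TPM, SD, n = 3). In SK-Hep1 10 rose and 4 fell of 19, with the ligand PDGFA up by 1.52 and the EGF family ligand EREG (-1.35) and the receptor ERBB3 (-0.86) down. EREG went from 217 ± 21.4 to 84.3 ± 6.81 TPM there and stayed below 1 TPM on average in all other groups. In the libraries labelled SKBR3 6 rose and 2 fell of 15. ERBB2 rose there by 0.68, from 25.5 ± 2.23 to 41.6 ± 3.25 TPM, KIT rose by 0.71, and FGFR1 fell (-0.52). In batch 1 none of 15 was called. Over all genes tested, 17.9% rose and 15.7% fell in A375 batch 2, 37.3% and 18.2% in SK-Hep1 and 47.3% and 14.7% in SKBR3, so the 6 of 15 in SKBR3 is a smaller share than over all genes. Under median scaling the splits were 4 and 5 in SK-Hep1 and 3 and 2 in SKBR3.

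In the JNK and p38 branch, which shares phosphatases such as DUSP4 with ERK, 6 rose and 1 fell of 17 in A375 batch 2, 9 and 3 of 18 in SK-Hep1 and 8 and 3 of 18 in SKBR3, against 0 and 0 of 16 in batch 1. Over all genes tested, 17.9% rose and 15.7% fell in A375 batch 2 and 37.3% and 18.2% in SK-Hep1. The shares were 47.3% and 14.7% in SKBR3, near the SKBR3 counts here, and 1.18% and 6.73% in batch 1. Under median scaling the SKBR3 split was 3 and 6. JUN rose by 1.73, the p38-activated kinase MAPKAPK2 by 0.29 and the JNK and p38 phosphatase DUSP10 by 1.49 in A375 batch 2, where DUSP10 went from 18.7 ± 2.43 to 54.0 ± 1.23 TPM. MAPK8, which encodes JNK1, rose in SK-Hep1 by 1.45 and in SKBR3 by 0.67. MAPK14, which encodes p38 alpha, fell in both, with changes of -0.82 and -1.06. The upstream kinases MAP2K3 in SK-Hep1 and MAP2K4 in SKBR3 rose by 1.2 and 0.42.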
